A study of Mus musculus with 14 samples.

Results

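The genes for amino acid and peptide transporters were followed in cells of the mouse small intestine. They were chosen by symbol alone, as the numbered members of the solute carrier families Slc1, Slc3, Slc7, Slc15, Slc36, Slc38 and Slc43 together with the Slc6 genes Slc6a14, Slc6a15, Slc6a17, Slc6a18, Slc6a19, Slc6a20a and Slc6a20b. The rule found 55 of the 36401 gene entries in the files, which carry 54 symbols because Slc38a9 is listed under 2 Ensembl identifiers. RNA came from C57Bl6 mice, labelled male and 6 to 12 weeks old, with no genetic change or treatment given in the labels. Ileum was taken 5 to 8 cm from the cecum and jejunum 5 to 8 cm from the pylorus. Each region gave 3 crypt libraries (crypt), 2 libraries of cells selected by LGR5, a receptor of crypt base stem cells (LGR5), and 2 of cells sorted as CD44 positive, CD24 low and CD166 positive (CD166), 14 libraries in all. How LGR5 cells were recognised, and whether libraries came from separate mice or from pools, is not given in the sources used here, so p-values measure the spread between these libraries.

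Dietary protein is taken up by enterocytes, the absorptive cells of the villus, as free amino acids and as di- and tripeptides. Carriers of the brush border, the membrane that faces the gut lumen, bring them in, driven by sodium, protons or exchange, and other carriers of the basolateral membrane pass them on to the blood. Several work as pairs of a light chain that transports and a heavy chain (Slc3a1 or Slc3a2) that brings it to the membrane. Dividing cells rely more on carriers such as Slc1a5, Slc7a5 and Slc38a2, which supply glutamine and essential amino acids for their own growth.

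Levels below are normalised counts scaled to library size (CPM), with TMM factors between libraries. Total counts ran from 6295828 to 20380369 per library, and the transporter genes held 0.139% to 0.335% of them. Of the 55 entries, 42 had enough counts to be tested. The other 13 (Slc7a12, Slc6a17, Slc7a13, Slc1a7, Slc15a5, Slc7a10, Slc38a3, Slc1a6, Slc6a15, Slc36a3, Slc36a2, Slc38a5 and Slc7a3) stayed below 1 CPM in every library, with a highest value of 0.719 CPM.

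Some libraries stood apart. The library labelled ileum crypt 3 held 25.8 CPM of the ileal bile acid-binding gene Fabp6. Ileum crypt 1 and 2 held 2688 and 1987 CPM. The library was most like jejunum crypt 1, as 16.6% of genes differed between them beyond counting noise, where noise alone would give about 5%. The next closest pair of the series, jejunum LGR5 1 and 2, differed in 37%. Jejunum crypt 1 itself held 25.1 CPM of Fabp6, against 1.26 and 1.14 CPM in jejunum crypt 2 and 3. Region comparisons are therefore also given without the library labelled ileum crypt 3, and these keep jejunum crypt 1. That choice came from these same data, so p-values without the library depend on it. Leaving out an ileum library that resembles jejunum can enlarge region differences in crypt. All groups share an estimate of the spread, so calls in sorted cells can change with it. Jejunum crypt 2 was low in cell cycle genes, with a summed level of 532 CPM over 8 genes. All other crypt libraries had 1301 to 1503 CPM. Jejunum crypt 2 also had the highest summed enterocyte and lymphocyte markers of all libraries, 53486 and 11792 CPM. Its summed crypt base stem cell markers were the lowest, at 1506.5 CPM. In the other crypt libraries the lymphocyte sum was 150 to 3399 CPM. Xist, a transcript of female cells, stood at 1675 CPM in the first ileum crypt library and 1310 CPM in jejunum crypt 2; elsewhere in crypt it did not pass 3.12 CPM. The Y-linked Ddx3y was at 0 counts in those 2 crypt libraries and at 40.4 to 53.5 CPM in the other 4. All 8 sorted libraries held both, with 201 to 1361 CPM of Xist and 4.59 to 35.2 CPM of Ddx3y, although every sample is labelled male.

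Crypt and sorted libraries both held RNA of several cell types. Summed over 15 enterocyte markers, ileum crypt libraries held 8149 to 23528 CPM and jejunum crypt libraries 23996 to 53486 CPM, against 1495 to 2434 CPM in LGR5 cells and 1573 to 3145 CPM in CD166 cells; no marker of this list was at 0 in any group. All 12 crypt base stem cell markers rose in both sorted populations against crypt. This list holds Lgr5, by which the LGR5 cells were selected. Without the library labelled ileum crypt 3, 12 rose in LGR5 and 9 in CD166 cells. With all libraries 9 of 10 lymphocyte markers fell in both sorted populations. Ileum LGR5 2 had the highest summed goblet markers of all libraries, 25016 CPM, against 2115 to 3553 CPM in jejunum LGR5. Its summed stem cell markers were 10203 CPM, against 20832 CPM in ileum LGR5 1 and 17984 to 21209 CPM in jejunum LGR5. Summed Paneth markers were 32974 to 53623 CPM in CD166 libraries of both regions. The part of these cells in the region differences within sorted populations was not tested. In bulk RNA, fewer cells of a type and less RNA per cell cannot be told apart.

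**Figure D1:**
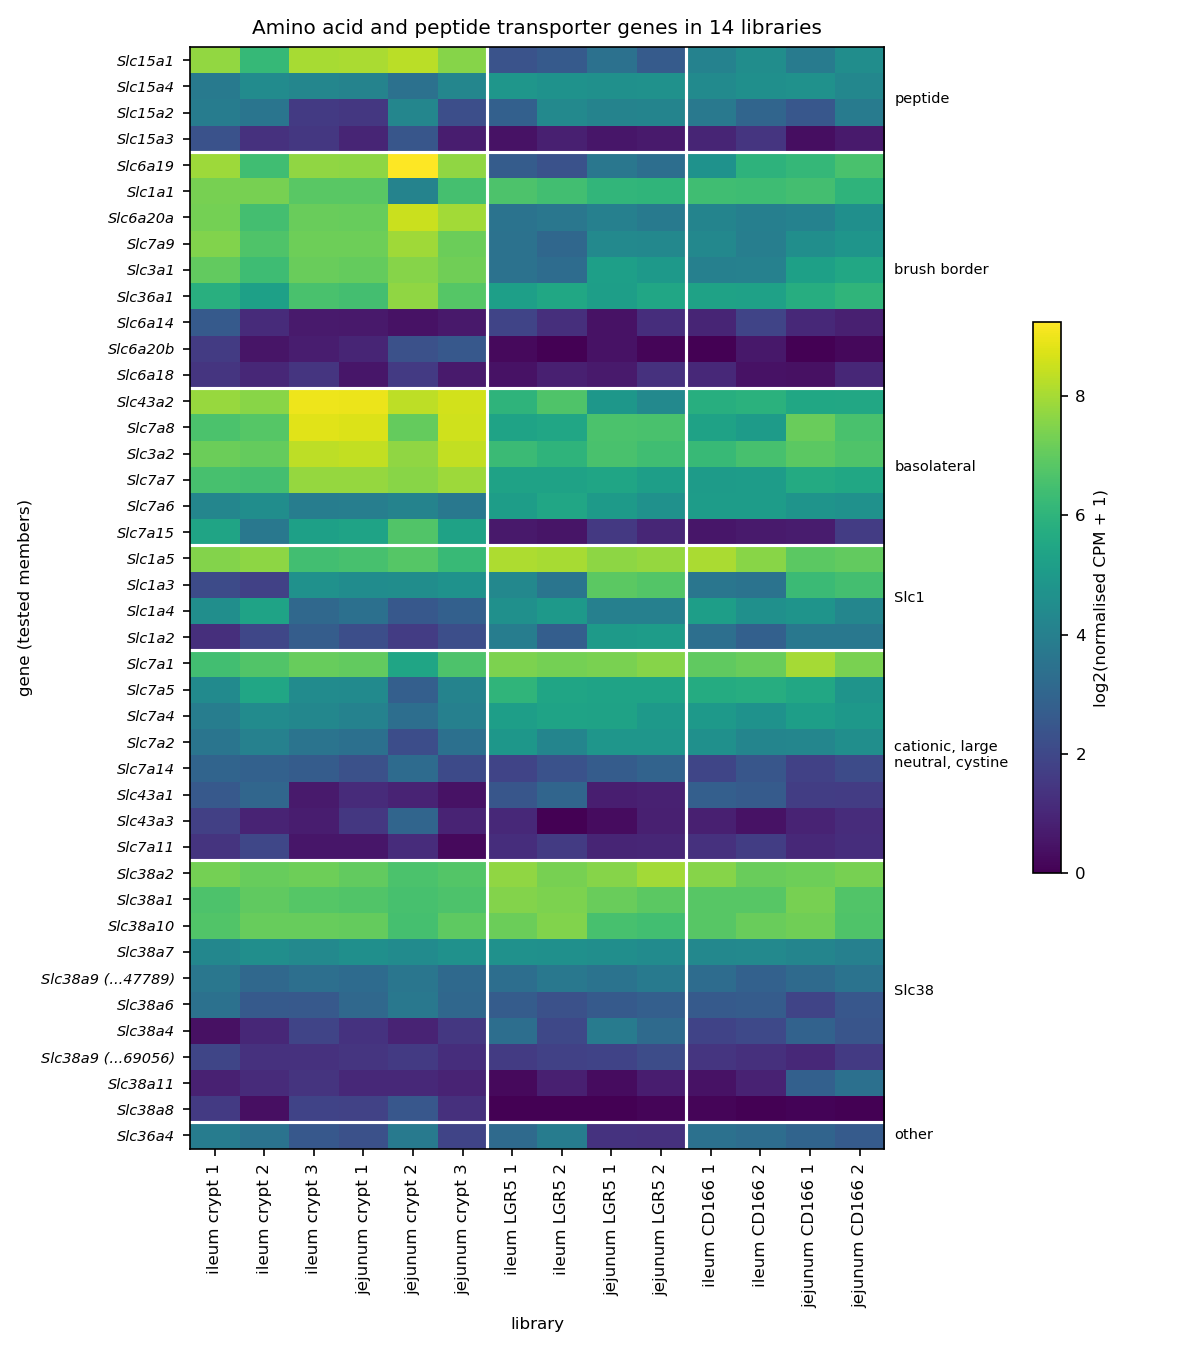
Heat map of the 42 tested transporter entries (rows, grouped by role) in the 14 libraries (columns, grouped by population and region); colour gives log2 of the normalised CPM plus 1. Most brush border and basolateral rows are brightest in the crypt columns, where Slc6a19 reaches 602 CPM in jejunum crypt 2. The basolateral row of Slc7a6 is brighter in the sorted columns.

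Levels of different transporters were compared per kilobase of exon. The crypt libraries did not share a leading gene. The heavy chain Slc3a2 was first in jejunum crypt 1 and 3 and in the library labelled ileum crypt 3, at 93.8, 93.99 and 90.8 CPM per kilobase. Slc7a9, a light chain of the brush border, led in ileum crypt 1 with 66.9 CPM per kilobase, and the glutamine carrier Slc1a5 in ileum crypt 2 with 47.9. In jejunum crypt 2 the first place went to Slc6a19, a brush border carrier of neutral amino acids, with 120 CPM per kilobase. In all 4 LGR5 libraries Slc1a5 ranked first, with means of 64.6 ± 2.3 CPM per kilobase in ileum and 50.4 ± 2.0 in jejunum (SD, n = 2 each). It also led in both ileum CD166 libraries, with 54.5 ± 12.1 CPM per kilobase, whereas Slc3a2 (31.4 ± 3.2) and Slc1a5 (29.8 ± 1.6) were within their spread of each other in jejunum CD166 cells. These ranks describe levels, and no test was made between genes.

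The first comparison set sorted cells against crypt cells. LGR5 cells had far less RNA of the peptide carrier and of nearly every abundant brush border and basolateral carrier, and more of several carriers of the Slc1, Slc7 and Slc38 families. Of 42 tested entries 14 fell and 12 rose in LGR5 cells against crypt (edgeR quasi-likelihood test, adjusted p under 0.05), where 18.5% of all genes fell and 13.0% rose. In CD166 cells 13 fell and 6 rose, where 16.5% of all genes fell and 13.6% rose. The median log2 fold change of the tested entries was -0.16 for LGR5 and -0.19 for CD166, against -0.01 and 0.02 over all genes. The counts by role given below are to be read against the shares of all genes given here. Both comparisons use the same crypt libraries. The values are means over both regions.

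Slc15a1, the proton-coupled peptide carrier of the brush border, had 210, 71.4 and 263 CPM in ileum crypt 1 to 3 and 268, 313 and 188 in their jejunum counterparts. It had 4.14 and 5.17 CPM in ileum LGR5, 9.90 and 5.32 in jejunum LGR5, 16.3 and 21.9 in ileum CD166 and 13.5 and 22.3 in jejunum CD166. Every sorted library lay below every crypt library. The level fell 36.4-fold in LGR5 cells (log2 -5.19 ± 0.43 SE, edgeR adjusted p = 2.36e-05) and 11.7-fold in CD166 cells (-3.54 ± 0.38, adjusted p = 0.000124). The CD166 libraries all lay above the LGR5 libraries, by a log2 difference of 1.64 ± 0.39 that did not pass the test (edgeR adjusted p = 0.0757). Slc15a4, a histidine and peptide carrier of endosomes and lysosomes, rose in LGR5 cells by 0.65 ± 0.19 (edgeR adjusted p = 0.0242) within a range of 9.89 to 27.8 CPM over all libraries. Slc15a3, its lysosomal relative, fell in LGR5 cells by 1.98 ± 0.64 on the log2 scale (edgeR adjusted p = 0.0376) from low levels of 0.654 to 4.49 CPM in crypt. GENCODE M21 places 28.06% of its exon bases over Tmem132a on the other strand, a gene that rose in both sorted populations, and strand-aware counting is not stated. Both LGR5 calls were lost without any 1 of the LGR5 libraries, and that of Slc15a3 also without ileum crypt 1 or jejunum crypt 2 (adjusted p up to 0.101 for Slc15a4 and 0.135 for Slc15a3, edgeR). Slc15a2, the high-affinity peptide carrier known from kidney, ranged from 1.84 to 19.6 CPM without a call.

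Of 9 tested amino acid carriers grouped here as brush border, 6 fell and 0 rose in each sorted population. The same genes fell in both: Slc6a19, Slc6a20a, Slc6a20b, Slc3a1, Slc7a9 and Slc36a1. Slc1a5 was counted with other Slc1 genes and not in this group. Slc6a19, the main sodium-driven carrier of neutral amino acids, stood at 233, 82.7 and 209 CPM in ileum crypt, 201, 602 and 205 in jejunum crypt, 5.42 and 3.98 in ileum LGR5, 11.7 and 9.01 in jejunum LGR5, 25.02 and 61.0 in ileum CD166 and 69.6 and 95.0 in jejunum CD166. LGR5 libraries were lowest and did not overlap the CD166 libraries; one jejunum CD166 library passed the lowest crypt library. The fall was 34.7-fold in LGR5 cells (log2 -5.12 ± 0.51, edgeR adjusted p = 7.47e-05) and 4.07-fold in CD166 cells (-2.02 ± 0.42, adjusted p = 0.00507).

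Slc6a19 was also the single transporter called between the sorted populations. It was 8.53-fold higher in CD166 than in LGR5 cells (log2 3.09 ± 0.48, edgeR adjusted p = 0.00738), higher in 4 of 4 CD166 libraries. In this comparison 1 of 42 entries rose and 0 fell, where 1.61% of all genes rose and 0.0% fell; 9 entries had an unadjusted p under 0.05, DESeq2 called 3 and limma-voom 1. The call was lost without any 1 of the LGR5 libraries, with log2 values from 2.70 to 3.33 over all 14 fits that left out a library and adjusted p up to 0.0612. The 15 enterocyte markers gave no call in this comparison and a median log2 of 0.45. Markers of other cell types moved: 9 of 11 enteroendocrine markers (median log2 2.27) and 5 of 10 Paneth markers (median 2.40) rose and 0 fell. Their part in the Slc6a19 difference was not tested.

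Slc6a20a, the sodium-driven carrier of proline, had 155, 89.1 and 139 CPM in ileum crypt, 134, 358 and 246 in jejunum crypt, 10.5 and 11.5 in ileum LGR5, 15.4 and 12.9 in jejunum LGR5, 16.99 and 14.9 in ileum CD166 and 15.98 and 23.0 in jejunum CD166. All crypt libraries exceeded all sorted ones, and it fell by 3.83 ± 0.30 and 3.33 ± 0.29 on the log2 scale in LGR5 and CD166 cells (edgeR adjusted p = 1.86e-05 and 3.98e-05). Its neighbour Slc6a20b, called lower in both, did not pass 4.85 CPM in crypt or 0.510 CPM in sorted cells. The Slc6a20b call was lost without any 1 LGR5 library, or for CD166 without ileum CD166 1 or jejunum CD166 1 (edgeR adjusted p up to 0.0934 and 0.0781). Both genes' values are uncertain, since 26.7% of the 50-base words of Slc6a20a occur in other genes, with Slc6a20b as the gene that shares the most. GENCODE M21 places 14.32% of the exon bases of Slc6a20a over Ccr9 and 2 other genes on the other strand, and 21.08% of those of Slc6a20b over Sacm1l. Both of these fell in LGR5 and CD166 cells: Ccr9 had log2 values of -5.82 ± 1.24 and -5.46 ± 1.17 (edgeR adjusted p = 0.00554 and 0.00578) and Sacm1l of -0.72 ± 0.13 and -0.57 ± 0.12 (adjusted p = 0.00185 and 0.00632).

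Slc3a1 and Slc7a9 encode the heavy and light chain of the carrier of cystine and cationic amino acids, the pair that is defective in cystinuria. Slc3a1 had 130, 80.9 and 140 CPM in ileum crypt, 131, 187 and 148 in jejunum crypt, 10.3 and 8.61 in ileum LGR5, 35.7 and 30.6 in jejunum LGR5, 15.3 and 15.7 in ileum CD166 and 37.3 and 45.4 in jejunum CD166. Slc7a9 followed with 179, 101 and 145 CPM in ileum crypt, 147, 240 and 144 in jejunum crypt, 10.1 and 7.43 in ileum LGR5, 19.3 and 19.0 in jejunum LGR5, 18.8 and 14.3 in ileum CD166 and 22.6 and 27.5 in jejunum CD166. For both chains all crypt libraries lay above all sorted libraries. Slc3a1 fell 7.61-fold in LGR5 and 5.32-fold in CD166 cells (log2 -2.93 ± 0.19 and -2.41 ± 0.18, edgeR adjusted p = 7.28e-06 and 2.34e-05). Slc7a9 fell 12.2-fold and 7.77-fold (log2 -3.61 ± 0.24 and -2.96 ± 0.23, edgeR adjusted p = 7.76e-06 and 2.34e-05).

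Among the brush border carriers not called, Slc1a1, the carrier of glutamate and aspartate, kept 62.5 to 100 CPM in sorted cells and 91.2 to 163 CPM in 5 crypt libraries, with 16.4 CPM in jejunum crypt 2. Its log2 difference was -0.43 in LGR5 cells and -0.42 in CD166 cells. GENCODE M21 places 31.86% of its exon bases over 4430402I18Rik on the other strand, and that gene reached 15.5 CPM in jejunum crypt 2. Slc36a1, the proton-driven carrier of small neutral amino acids, fell by a smaller amount, 1.21 ± 0.29 on the log2 scale in LGR5 and 0.95 ± 0.28 in CD166 cells (edgeR adjusted p = 0.00958 and 0.0277). It had 37.4 to 209 CPM in crypt and 35.5 to 65.4 CPM in sorted cells, which overlap, and the CD166 call was lost without the library labelled ileum crypt 3 or any 1 CD166 library. Slc6a14, a broad carrier known from colon, and Slc6a18 were at most 5.13 and 1.98 CPM and were not called.

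**Figure D2:**
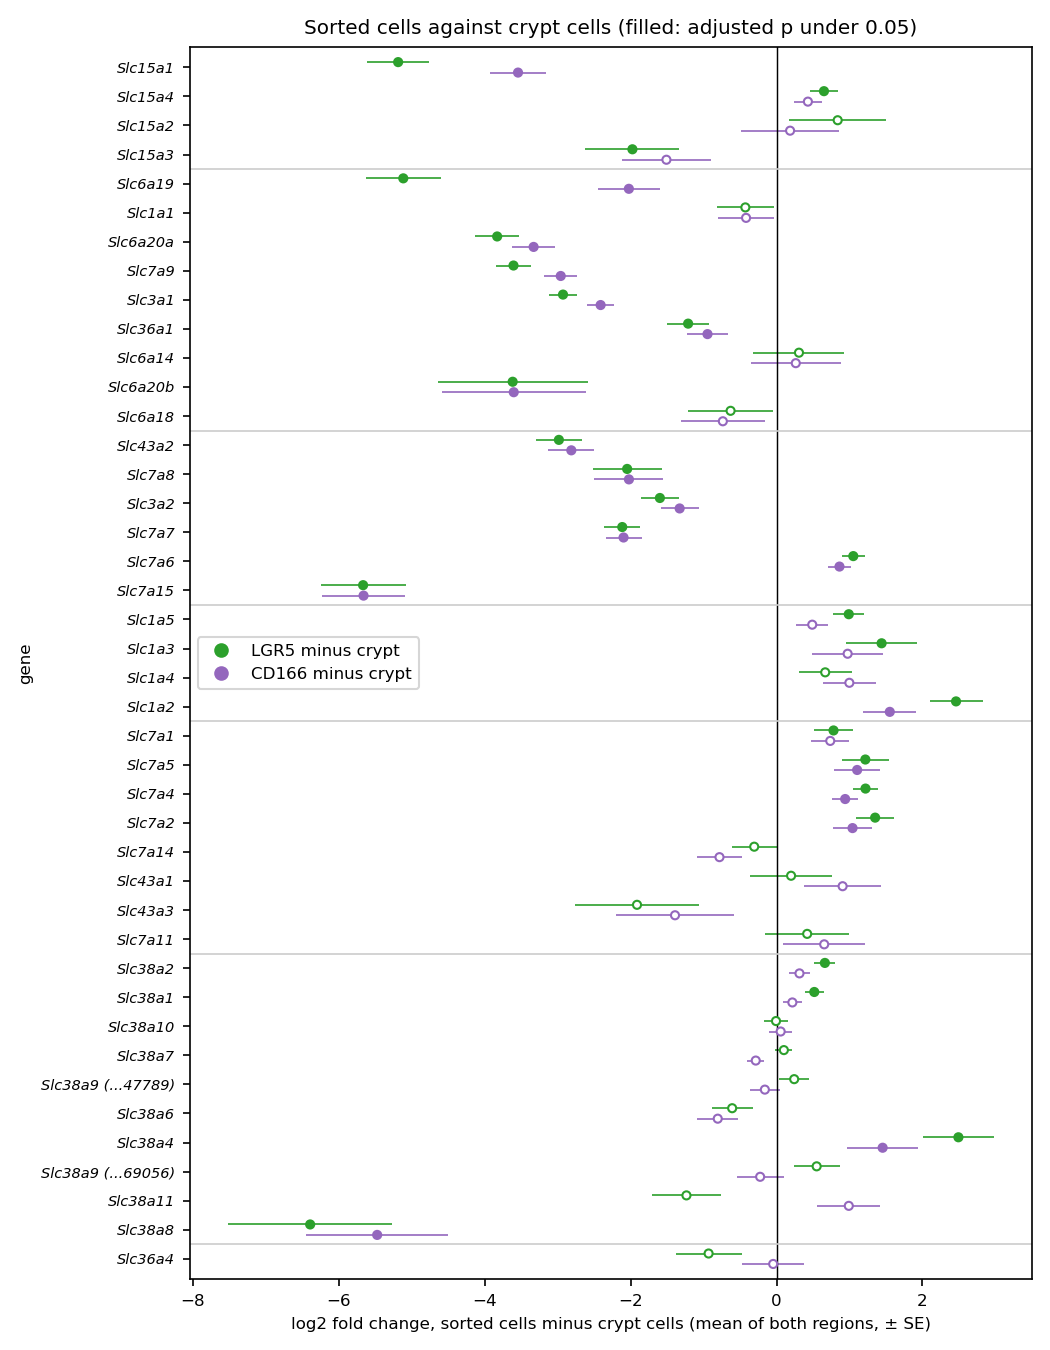
Log2 fold change of each tested transporter entry in LGR5 cells (green) and CD166 cells (purple) against crypt cells, averaged over regions, with its SE; filled points passed an adjusted p of 0.05 and grey lines divide the roles. The points furthest left with more than 10 CPM in crypt are Slc7a15 (-5.67), Slc15a1 (-5.19) and Slc6a19 (-5.12) in LGR5 cells; the points to the right include Slc1a2 (2.46) and Slc38a4 (2.49).

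Of 6 basolateral entries, 5 fell and 1 rose in each sorted population. Slc3a2, the heavy chain shared by most of them, had 142, 132 and 321 CPM in ileum crypt, 331, 209 and 332 in jejunum crypt, 77.8 and 63.2 in ileum LGR5, 94.7 and 83.4 in jejunum LGR5, 73.4 and 91.5 in ileum CD166 and 119 and 103 in jejunum CD166. It fell 3.03-fold in LGR5 cells (log2 -1.60 ± 0.27, edgeR adjusted p = 0.00152) and 2.51-fold in CD166 cells (-1.33 ± 0.26, adjusted p = 0.00367), with no overlap between sorted and crypt libraries. Slc7a7, the exchanger that exports cationic amino acids, had 87.7 to 232 CPM in crypt and 32.6 to 48.8 CPM in sorted cells and fell by 2.12 ± 0.25 and 2.10 ± 0.25 on the log2 scale (edgeR adjusted p = 0.000184 and 0.000203). Slc43a2, an exit path for large neutral amino acids, had 190 to 513 CPM in crypt and 19.5 to 103 CPM in sorted cells and fell by 2.98 ± 0.32 and 2.81 ± 0.31 (edgeR adjusted p = 0.000103 and 0.000148).

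Slc7a8, the exchanger of neutral amino acids, split the crypt libraries: it had 97.2, 110 and 132 CPM in ileum crypt 1, ileum crypt 2 and jejunum crypt 2, but 429 and 383 CPM in jejunum crypt 1 and 3 and 451 CPM in the one labelled ileum crypt 3. It had 40.1 and 43.6 CPM in ileum LGR5, 98.4 and 94.9 in jejunum LGR5, 39.4 and 32.7 in ileum CD166 and 137 and 94.7 in jejunum CD166. Crypt and sorted libraries overlapped across regions, and the fall was 4.14-fold in LGR5 cells and 4.07-fold in CD166 cells (log2 -2.05 ± 0.47 and -2.02 ± 0.47, edgeR adjusted p = 0.00842 and 0.00872). Slc7a15, a light chain that prefers aromatic amino acids and was placed here by its family, had 11.9 to 106 CPM in crypt and 0.430 to 2.08 CPM in sorted cells. It fell 50.8-fold in LGR5 and 50.6-fold in CD166 cells (log2 -5.67 ± 0.58 and -5.66 ± 0.57, edgeR adjusted p = 8.68e-05 and 8.51e-05). The member that rose was Slc7a6, a close relative of Slc7a7, from 12.0 to 21.9 CPM in crypt to 24.6 to 43.7 CPM in sorted cells (log2 1.05 ± 0.16 and 0.86 ± 0.16, edgeR adjusted p = 0.000747 and 0.00227).

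The genes that fell did so beside the enterocyte list, of which 15 of 15 markers fell in each sorted population, with a median log2 of -4.33 in LGR5 and -3.57 in CD166 cells. The part of enterocyte RNA in the lower transporter levels was not tested. Other proteins of the brush border were followed beside these carriers. The scaffold gene Pdzk1 fell in both sorted populations (log2 -6.36 ± 0.47 in LGR5 and -6.02 ± 0.45 in CD166 cells, edgeR adjusted p = 1.41e-05 and 2.34e-05), as did the sodium-proton exchanger gene Slc9a3 (-4.73 ± 0.82 and -4.22 ± 0.78, adjusted p = 0.0019 and 0.0027). Without ileum crypt replicate 3 the Slc9a3 differences were -3.56 and -3.05 on the log2 scale. Tmem27, the partner of Slc6a19 in kidney, was at most 6.18 CPM and rose in CD166 cells by 2.25 ± 0.43 (edgeR adjusted p = 0.00312).

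The Slc1 carriers other than Slc1a1 were grouped by family, without regard to membrane side, and went the other way. Of 4 tested, 3 rose in LGR5 cells and 1 in CD166 cells, and 0 fell. Without the library labelled ileum crypt 3 the CD166 count was 3, as Slc1a3 (1.88, edgeR adjusted p = 8.57e-05) and Slc1a4 (0.79, adjusted p = 0.0422) were then called too. Slc1a5, the sodium-driven exchanger of glutamine and small neutral amino acids, had 181, 200 and 86.8 CPM in ileum crypt, 93.3, 111 and 73.1 in jejunum crypt, 276 and 263 in ileum LGR5, 204 and 216 in jejunum LGR5, 263 and 192 in ileum CD166 and 120 and 129 in jejunum CD166. Every LGR5 library exceeded every crypt library, while CD166 libraries overlapped them. It rose 1.99-fold in LGR5 cells (log2 0.99 ± 0.21, edgeR adjusted p = 0.00614) and differed by 0.49 ± 0.22 in CD166 cells, short of the threshold (adjusted p = 0.108). Slc1a2, a glutamate carrier best known from astrocytes, had 1.37 to 5.60 CPM in crypt, 14.1 and 5.70 in ileum LGR5, 32.1 and 33.3 in jejunum LGR5, 9.42 and 6.12 in ileum CD166 and 11.8 and 11.8 in jejunum CD166. All sorted libraries lay above all crypt libraries, and it rose 5.50-fold in LGR5 and 2.93-fold in CD166 cells (log2 2.46 ± 0.36 and 1.55 ± 0.36, edgeR adjusted p = 0.000757 and 0.00851).

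Among 8 tested carriers of cationic, large neutral amino acids and cystine, 4 rose and 0 fell in LGR5 cells, and 3 rose and 0 fell in CD166 cells. Slc7a5, the light chain that exchanges glutamine for leucine, had 5.93 to 43.1 CPM in crypt, 40.2 to 65.6 CPM in LGR5 and 26.8 to 52.6 CPM in CD166 cells. The ranges overlapped, and it rose by 1.22 ± 0.32 and 1.10 ± 0.32 on the log2 scale (edgeR adjusted p = 0.0154 and 0.0234). The arginine and lysine carriers Slc7a1 and Slc7a2 differed in level: Slc7a1 had 42.1 to 135 CPM in crypt and 125 to 250 CPM in sorted cells, Slc7a2 3.60 to 15.8 CPM and 17.2 to 28.7 CPM. Slc7a2 rose by 1.35 ± 0.26 and 1.04 ± 0.26 (edgeR adjusted p = 0.00363 and 0.0129), and Slc7a1 rose in LGR5 cells by 0.78 ± 0.26 (edgeR adjusted p = 0.0415), a call kept only when jejunum crypt 1, jejunum crypt 2 or the library labelled ileum crypt 3 was the 1 left out. Without ileum LGR5 1 or either jejunum LGR5 library Slc7a5 lost its LGR5 call, and without any of 4 libraries (the one labelled ileum crypt 3, ileum CD166 1 and 2, jejunum CD166 1) its CD166 call (edgeR adjusted p up to 0.0819 and 0.121). Slc7a2 lost its CD166 call without ileum CD166 1 or jejunum CD166 2. Slc7a4, a relative whose substrate is unsettled, rose by 1.22 ± 0.18 and 0.94 ± 0.18 (edgeR adjusted p = 0.000685 and 0.00291). Slc7a11, the cystine and glutamate exchanger, was low at 0.164 to 2.86 CPM and was not called.

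Of 10 tested Slc38 entries, 3 rose and 1 fell in LGR5 cells, and 1 rose and 1 fell in CD166 cells. Of all genes 13.0% rose and 18.5% fell in LGR5 cells, and 13.6% rose and 16.5% fell in CD166 cells. The CD166 counts of this family were thus not above those shares. Slc38a2, a sodium-driven carrier of glutamine and alanine, had 96.3 to 156 CPM in crypt, 163 to 250 CPM in LGR5 and 138 to 185 CPM in CD166 cells. It rose in LGR5 cells by 0.66 ± 0.14 (edgeR adjusted p = 0.00588), and Slc38a1, a related glutamine carrier, by 0.52 ± 0.13 (adjusted p = 0.0128). Slc38a2 lost this call without jejunum LGR5 2, and Slc38a1 without ileum or jejunum LGR5 1 (edgeR adjusted p up to 0.0568 and 0.0757). Slc38a4 rose most in this family, from 0.342 to 2.74 CPM in crypt to 3.01 to 13.5 CPM in LGR5 and 2.59 to 6.54 CPM in CD166 cells (log2 2.49 ± 0.48 and 1.45 ± 0.48, edgeR adjusted p = 0.00348 and 0.0418). The CD166 call of Slc38a4 held only without the library labelled ileum crypt 3, ileum LGR5 1 or ileum LGR5 2 and was lost without any 1 of the other 11. Slc38a8 had 0.301 to 4.67 CPM in crypt and at most 0.0923 CPM in sorted cells, with 0 counts in 5 of 8, and was called lower in both.

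The second comparison set ileum against jejunum, the question named in the title of the series. On average over the populations, jejunal cells had more RNA of both chains of the cystine carrier, Slc3a1 and Slc7a9, and of the glutamate carrier Slc1a3. For Slc7a9 the crypt libraries of the regions overlapped. Ileal cells had more of Slc43a1, a low-abundance exit carrier of large neutral amino acids. Averaged over the 3 populations, 1 of 42 tested entries rose and 3 fell in ileum against jejunum, where 2.99% of all genes rose and 2.02% fell. The median log2 difference was -0.05 for the tested entries and -0.01 for all genes.

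Sequences of 250 bases upstream of the start sites of these 4 genes are shown because they are the transporters called between regions; they are from RefSeq on GRCm38.p6, a later build than the mm9 genome of the files. Capitals mark matches to 5 motifs searched on both strands: TGATGNAA (core of the ATF4 and C/EBP element), the palindrome of HNF1, CAAAGTCCA (HNF4), AGATAA (for GATA factors) and TTTATNG (for CDX factors).
Slc3a1, chr17:85028097-85028346, plus strand: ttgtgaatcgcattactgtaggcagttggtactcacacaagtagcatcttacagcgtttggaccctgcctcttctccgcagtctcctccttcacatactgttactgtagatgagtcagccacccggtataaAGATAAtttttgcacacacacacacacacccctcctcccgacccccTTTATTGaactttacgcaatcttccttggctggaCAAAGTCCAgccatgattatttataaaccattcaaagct
Slc7a9, chr7:35448842-35449091, plus strand: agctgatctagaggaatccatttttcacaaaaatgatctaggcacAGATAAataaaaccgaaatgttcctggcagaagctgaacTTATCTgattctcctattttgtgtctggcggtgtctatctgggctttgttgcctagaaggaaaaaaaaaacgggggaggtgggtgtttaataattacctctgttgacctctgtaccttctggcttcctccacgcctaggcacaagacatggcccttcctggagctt
Slc1a3, chr15:8710808-8711057, minus strand: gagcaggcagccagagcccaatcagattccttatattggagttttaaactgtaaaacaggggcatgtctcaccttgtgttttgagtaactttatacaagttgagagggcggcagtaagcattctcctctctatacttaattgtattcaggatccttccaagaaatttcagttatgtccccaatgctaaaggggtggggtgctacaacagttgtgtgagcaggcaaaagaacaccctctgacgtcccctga
Slc43a1, chr2:84840073-84840322, plus strand: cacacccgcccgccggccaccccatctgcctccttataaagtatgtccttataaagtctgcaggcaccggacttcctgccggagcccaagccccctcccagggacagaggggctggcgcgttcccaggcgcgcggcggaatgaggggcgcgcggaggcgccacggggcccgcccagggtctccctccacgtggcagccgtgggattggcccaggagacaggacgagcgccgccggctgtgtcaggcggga

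The Slc3a1 window held a match to the GATA letters at -119, the CDX letters at -73 and the HNF4 letters at -39 from the start site. Slc7a9 held the GATA letters at -205 and, as their reverse complement, at -166, and the other 2 windows held no match. Of 10001 tested genes with a promoter in the table, 7.78% held the GATA letters, 7.98% the CDX letters, 0.58% the HNF4 letters, 2.4% the ATF4 letters and 0.0% the HNF1 letters. Among 40 transporter genes with a promoter the counts were 4, 2, 1, 2 and 0. These are matches of letters and not binding sites.

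For Slc3a1, with the values given above, jejunum exceeded ileum without overlap in LGR5 and in CD166 cells, whereas the crypt libraries overlapped through the library labelled ileum crypt 3; ileum crypt 1 and 2 lay below all jejunum crypt libraries. Over all populations it fell 2.31-fold in ileum (log2 -1.21 ± 0.14, edgeR adjusted p = 0.00276), a call kept without each library in turn. Within LGR5 cells it fell 3.50-fold (log2 -1.81 ± 0.27, edgeR adjusted p = 0.0288). That call was lost without any 1 of 8 libraries (jejunum crypt 3, ileum LGR5 2, both jejunum LGR5 and all 4 CD166 libraries), with adjusted p up to 0.296. The log2 difference was -0.41 ± 0.21 in crypt and -1.41 ± 0.26 in CD166 cells, neither called, and the difference between populations was not called (interaction, edgeR adjusted p = 0.737). GENCODE M21 places 26.46% of the exon bases of Slc3a1 over Prepl on the other strand; Prepl had a log2 region difference of -0.09 ± 0.12.

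In LGR5 and in CD166 cells Slc7a9 was also higher in jejunum without overlap. The crypt libraries overlapped, with 179 CPM in ileum crypt 1 against 147 and 144 CPM in jejunum crypt 1 and 3. Over all populations Slc7a9 changed less than its partner. It fell 1.60-fold in ileum (log2 -0.68 ± 0.17, edgeR adjusted p = 0.0477), and this call was lost without any 1 of 10 libraries, the exceptions being ileum crypt 1, jejunum crypt 1 and 2 and the library labelled ileum crypt 3 (adjusted p up to 0.164). The ratio of Slc3a1 to Slc7a9 RNA, per length of exon, was 0.854 to 1.21 in the 6 crypt libraries, 1.20 and 1.37 in ileum LGR5, 0.959 and 1.29 in ileum CD166, 2.17 and 1.90 in jejunum LGR5 and 1.94 and 1.95 in jejunum CD166. The 4 jejunal sorted libraries were thus higher than the other 10, a pattern noticed in the data and given without a test.

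Slc1a3, a sodium-driven glutamate and aspartate carrier best known from glia, had 3.31 and 2.41 CPM in ileum crypt 1 and 2, 21.4, 21.9 and 25.5 CPM in jejunum crypt and also 24.6 CPM in the one labelled ileum crypt 3. It had 19.0 and 11.1 CPM in ileum LGR5, 120 and 109 in jejunum LGR5, 11.4 and 10.5 in ileum CD166 and 78.2 and 87.4 in jejunum CD166. Jejunum lay above ileum in each population except for the library labelled ileum crypt 3. The gene fell 5.05-fold in ileum (log2 -2.34 ± 0.43, edgeR adjusted p = 0.0135), and without that library 7.69-fold (-2.94 ± 0.15, adjusted p = 9.04e-06). Within populations, without that library, the log2 difference was -2.99 ± 0.27 in crypt, -2.92 ± 0.26 in LGR5 and -2.92 ± 0.26 in CD166 cells, each called (edgeR adjusted p = 0.000735, 0.000845 and 0.0019). With all libraries none of the 3 passed the test. Against crypt, Slc1a3 rose in LGR5 cells by 1.44 ± 0.48 (edgeR adjusted p = 0.0423), a call lost without any 1 of the 13 libraries other than the one labelled ileum crypt 3 (adjusted p up to 0.162).

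Slc43a1 had 5.02 and 7.23 CPM in ileum crypt 1 and 2, 0.572 CPM in the one labelled ileum crypt 3, 1.19, 0.899 and 0.382 CPM in jejunum crypt, 4.50 and 7.10 in ileum LGR5, 0.716 and 0.819 in jejunum LGR5, 5.91 and 5.29 in ileum CD166 and 2.20 and 2.08 in jejunum CD166. Ileum exceeded jejunum in each population apart from the library labelled ileum crypt 3. It rose 4.67-fold in ileum (log2 2.22 ± 0.47, edgeR adjusted p = 0.023), or 5.27-fold without that library (2.40 ± 0.29, adjusted p = 0.000756). The calls of Slc1a3 and Slc43a1 over all populations were lost without any 1 of 6 and 7 libraries, all of them sorted libraries.

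**Figure D3:**
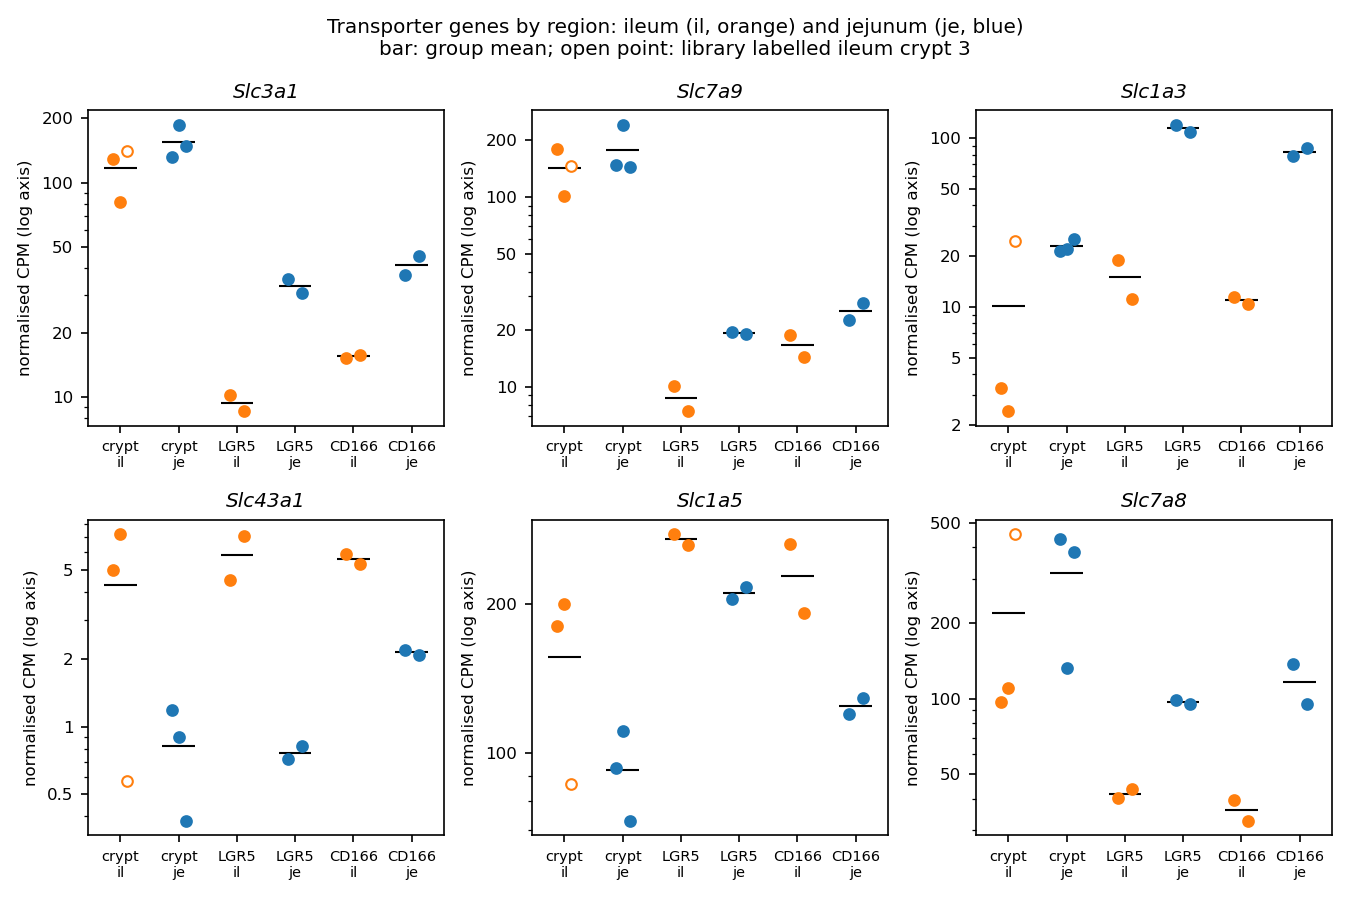
Normalised CPM (log axes that differ between panels) of 6 transporter genes in each library, by population and region, with group means as bars; the open point is the library labelled ileum crypt 3. For Slc1a3 that point (24.6 CPM) sits among the jejunum crypt libraries, and jejunal LGR5 and CD166 libraries lie at 78.2 to 120 CPM.

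Within single populations few transporters were called with all libraries. In LGR5 cells 0 rose and 1 fell (Slc3a1), where 0.569% of all genes rose and 0.129% fell; 9 entries had an unadjusted p under 0.05, and DESeq2 called 4 higher and 4 lower. In crypt cells 0 rose and 0 fell, as did 0.0% and 0.0% of all genes; 8 entries had an unadjusted p under 0.05, DESeq2 called 1 and limma-voom 0. In CD166 cells 0 rose and 0 fell, where 0.0136% and 0.00678% of all genes did; 5 entries had an unadjusted p under 0.05, DESeq2 called 3 and limma-voom 2. The joint interaction of region and population called 0 of 42 entries, where 0.0136% of all genes were called; 3 entries had an unadjusted p under 0.05, limma-voom called 0 and DESeq2 called 1, Slc38a11.

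Without the library labelled ileum crypt 3 the count over all populations rose to 4 higher and 7 lower, where 4.47% of all genes rose and 4.14% fell. The Slc1 family then differed by member: Slc1a5 (0.76 ± 0.12, edgeR adjusted p = 0.00411) and the neutral amino acid carrier Slc1a4 (1.14 ± 0.21, adjusted p = 0.0073) rose in ileum, whereas Slc1a3 and Slc1a2 (-0.99 ± 0.27, adjusted p = 0.0481) fell. Slc36a4, a high-affinity carrier of proline and tryptophan, also rose in ileum (1.48 ± 0.35, edgeR adjusted p = 0.0279). Of 6 basolateral entries 0 rose and 3 fell in ileum: Slc7a8 (-1.50 ± 0.25, edgeR adjusted p = 0.00442), Slc3a2 (-0.62 ± 0.14, adjusted p = 0.02) and Slc7a7 (-0.59 ± 0.09, adjusted p = 0.00236). Slc7a6 and Slc43a2 had differences of 0.44 and 0.39, not called. With all libraries the 7 genes called here had adjusted p of 0.0613 or more. Cell type markers moved as well. Of 15 enterocyte markers 2 rose and 8 fell in ileum (median log2 -1.24), 6 of 8 goblet markers rose (median 1.45) and 4 of 10 Paneth markers rose (median 0.77), with 0 lower in either; with all libraries the counts were 2 and 7, 3 and 4. The part of these cells in the transporter differences was not tested.

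In crypt cells, again without that library, 3 transporters rose and 4 fell in ileum (1.6% and 2.56% of all genes). Slc43a1, Slc1a4 (2.17 ± 0.34) and Slc1a5 (1.05 ± 0.20) rose, and Slc1a3, Slc36a1 (-1.53 ± 0.35), Slc7a7 (-1.25 ± 0.15) and Slc3a2 (-1.09 ± 0.23) fell. In LGR5 cells 2 rose and 2 fell (1.72% and 0.706% of all genes): Slc43a1 and Slc43a2 rose, Slc1a3 and Slc3a1 fell. Slc43a2 had 63.6 and 103 CPM in ileum LGR5 against 28.5 and 19.5 in jejunum LGR5 (log2 1.79 ± 0.30, edgeR adjusted p = 0.0163). In crypt its log2 difference was -0.96 ± 0.27, not called, and the interaction was not called (edgeR adjusted p = 0.181). In CD166 cells 0 rose and 3 fell (0.258% and 0.502% of all genes): Slc1a3, Slc3a1 and Slc38a11.

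Slc38a11, a member of the family with little known function, stood out in jejunum CD166 cells with 6.06 and 9.60 CPM. All 12 other libraries had 0.184 to 1.60 CPM. In CD166 cells it was 12.6-fold lower in ileum without the library labelled ileum crypt 3 (log2 -3.65 ± 0.70, edgeR adjusted p = 0.0476), and with all libraries the adjusted p was 0.148. The summed level of 11 enteroendocrine markers was highest in the same 2 libraries, at 7248 and 10558 CPM, against 1086 and 3218 CPM in ileum CD166 and at most 1004 CPM elsewhere. The part of those cells in the Slc38a11 level was not tested.

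**Figure D4:**
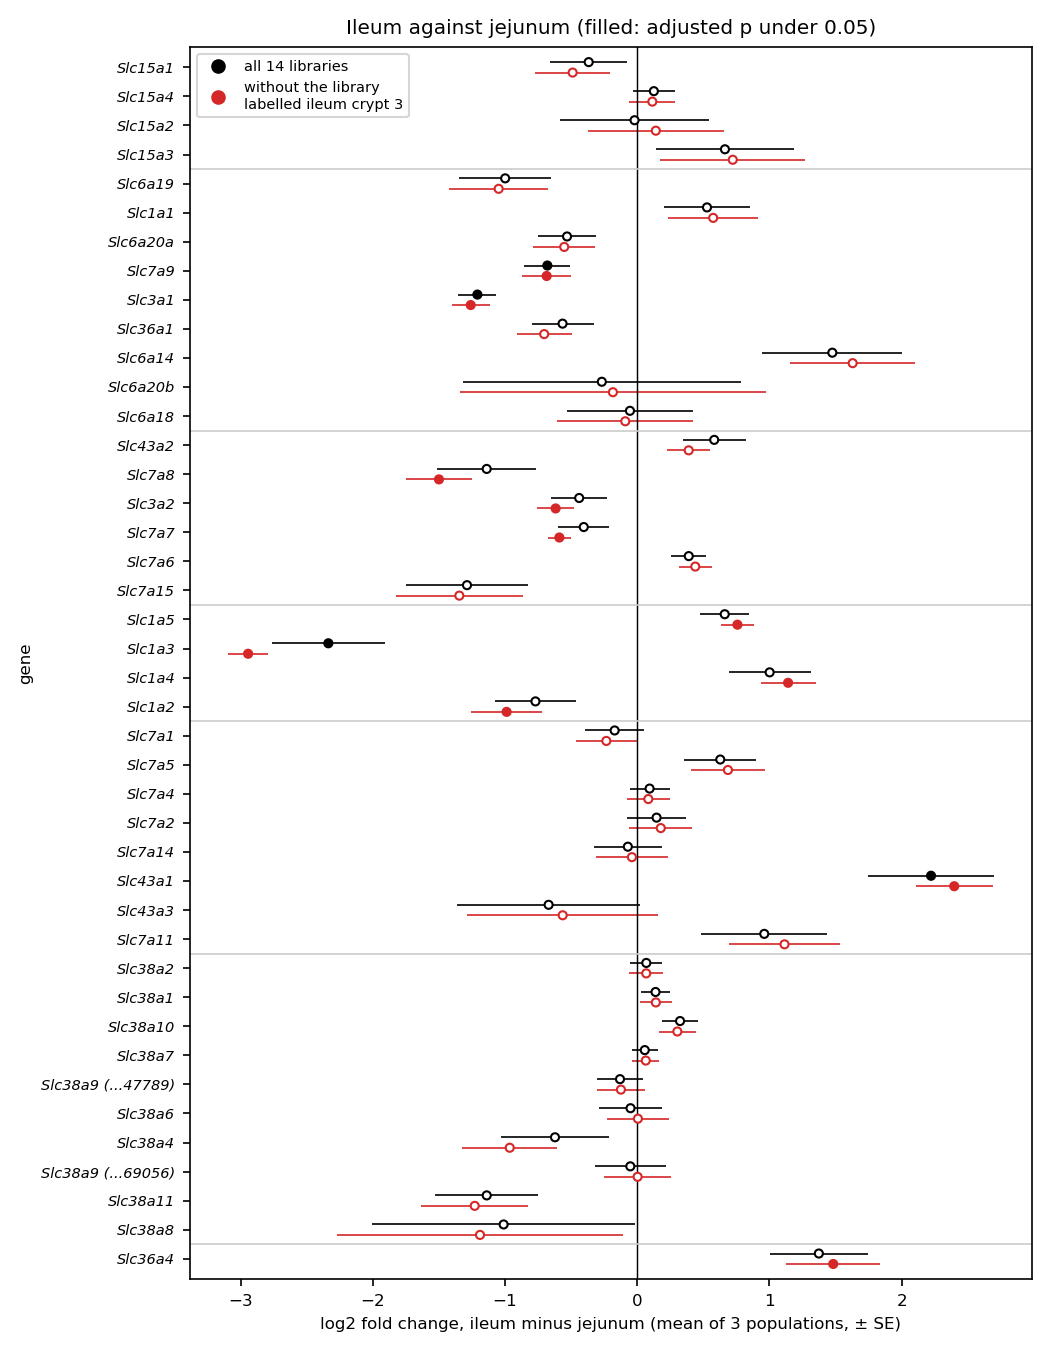
Log2 difference, ileum minus jejunum, averaged over 3 populations with its SE, for each tested transporter entry in all 14 libraries (black) and without the library labelled ileum crypt 3 (red); filled points passed an adjusted p of 0.05. Filled black points are Slc3a1, Slc7a9, Slc1a3 and Slc43a1, and 7 more points fill in red.

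Several absorptive carriers that are abundant in crypt were not called between regions over all populations, unlike Slc3a1 and Slc7a9. The log2 difference was -0.37 for Slc15a1, -0.999 ± 0.35 for Slc6a19 (edgeR adjusted p = 0.142), -0.53 ± 0.22 for Slc6a20a (adjusted p = 0.22) and 0.53 for Slc1a1. Simulated data of this design recovered 58% of 2-fold changes between regions over all populations, near the size seen for Slc6a19. Smaller changes were not simulated, so a missing call does not show equal levels. The glutamine carriers Slc38a1 and Slc38a2 had log2 differences of 0.14 and 0.07, Slc7a1 and Slc7a5 of -0.17 and 0.63, and the low Slc6a14 and Slc7a11 of 1.48 and 0.96, none called.

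Other genes that sense or use amino acids were read from 3 lists. ATF4 is the transcription factor that answers amino acid shortage, and of 20 of its target and pathway genes 6 rose and 3 fell in LGR5 cells, and 5 rose and 2 fell in CD166 cells. Over all genes 13.0% rose and 18.5% fell in LGR5 cells, and 13.6% rose and 16.5% fell in CD166 cells. The shares of the list that rose were above these and the shares that fell were below, and the list as a whole was not tested. The kinase regulator Trib3 fell (log2 -2.95 ± 0.37 and -2.61 ± 0.35, edgeR adjusted p = 0.000253 and 0.000459). The serine synthesis enzyme Phgdh rose (1.07 ± 0.15 and 1.28 ± 0.14, edgeR adjusted p = 0.000446 and 0.000155), as did Atf3 (2.59 ± 0.73 and 3.40 ± 0.74, adjusted p = 0.0213 and 0.00607). Atf3 also belongs to the list of immediate early genes, of which 7 of 8 rose in both sorted populations. Between regions 2 rose in ileum, the proline synthesis enzyme Pycr1 (1.24 ± 0.27, edgeR adjusted p = 0.0256) and the serine synthesis enzyme Psat1 (0.55 ± 0.13, adjusted p = 0.0329), and 0 fell. Without the library labelled ileum crypt 3, 5 rose and 0 fell, where 4.47% and 4.14% of all genes did; Chac1, which breaks down glutathione, had the largest difference of the 5 (1.75 ± 0.39, edgeR adjusted p = 0.0191).

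Of 22 tested genes through which amino acids act on the growth kinase complex mTORC1, 0 rose and 6 fell in LGR5 cells, and 2 rose and 3 fell in CD166 cells, to be read against the same shares of all genes (13.0% and 18.5% in LGR5, 13.6% and 16.5% in CD166). The GTPase gene Rragd fell by 1.53 ± 0.32 and 1.30 ± 0.31 on the log2 scale and the sestrin gene Sesn1 by 1.44 ± 0.21 and 1.31 ± 0.21, while Rragb rose in CD166 cells by 2.15 ± 0.53 (edgeR adjusted p = 0.0108). Of 7 tested mitochondrial amino acid carriers 4 fell in LGR5 and 3 in CD166 cells, with the same shares of all genes beside them, led by the glutamate carrier Slc25a22 (log2 -1.17 ± 0.17 and -1.40 ± 0.17, edgeR adjusted p = 0.000625 and 0.000227). Neither list had a call between regions over all populations with all libraries. Without the library labelled ileum crypt 3, Rragd (log2 -1.12 ± 0.15, edgeR adjusted p = 0.0013) and the mitochondrial ornithine carrier Slc25a15 (-0.51 ± 0.12, adjusted p = 0.0241) fell in ileum, 1 call in each list.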

How the data were processed

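RNA of 14 libraries was read as single-end 50-base reads from TruSeq libraries, per the labels' protocols. The submitters' processing notes name mm9 and DESeq without a version; no aligner, counter or annotation is stated there or elsewhere in the labels. The deposited files named for RPKM hold expected counts: of their non-zero values, 50.6% lay within 0.001 of a whole number and 80.3% within 0.0004 of a multiple of 0.02. The deposited log2 values are logs of the same counts after 1 constant per library and centring per gene (largest difference 1.2e-06 over 8826 genes above 50 counts everywhere).

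Expected counts were rounded, filtered with filterByExpr (minimum count 10, minimum total 15; 14750 genes kept) and fitted with edgeR 4.0.16 in R 4.3.3: TMM factors, a robust quasi-likelihood fit and 6 group means. Region contrasts averaged the 3 populations or stayed within 1; population contrasts averaged both regions. P-values were Benjamini-Hochberg adjusted over all 14750 genes, and genes were called under 0.05. The SE is the absolute log2 fold change over the square root of F. Adjusted p-values come from edgeR unless another tool is named.

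Alternatives were DESeq2 1.42.0 size factors or test, limma 3.58.1 (voom, or the deposited log2 values), other filters, only the compared groups, a replicate block and left-out libraries. Lengths and overlaps are from GENCODE M21 on GRCm38, so gene coordinates on mm9 are not given. In simulated data of the design 58% of 2-fold and 80% of 4-fold changes were called for the region averaged over populations, 1% and 42% for region within LGR5, 42% and 73% for LGR5 against crypt and 41% and 77% for CD166 against crypt. All called members are described with values, together with a chosen set of absorptive and growth carriers; of the other pathway genes, up to 3 called in each direction are named. Members, lists and tests were chosen with earlier results of these data known. One gene of the brush border partner list is not reported here, and no count is given for that list.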

Additional observations from a re-analysis of the deposited data

How the results depend on the processing

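All 51 called transporter results kept their direction in every alternative, and 33 kept the call in each; over 294 single results, 213 of 7279 alternative values changed sign where neither fit made a call. The counts against crypt stayed within 1.5 times of the main ones under all alternatives except left-out libraries: 7 to 12 higher and 12 to 14 lower for LGR5, lowest without ileum LGR5 1 for the higher count, and 3 to 7 higher and 11 to 15 lower for CD166, lowest without ileum CD166 1. Leaving out 1 library gave 0 to 4 higher and 1 to 7 lower between regions over all populations, 0 to 3 and 0 to 4 in crypt, 0 to 2 and 0 to 2 in LGR5, 0 higher and 0 to 3 lower in CD166, and 0 to 2 higher for CD166 against LGR5; the highest region counts came without the library labelled ileum crypt 3, and the lowest over all populations without ileum LGR5 2. Where 1 sorted library remained in a group, it was assumed to vary like the others.

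Between regions over all populations the higher count was 2 with no filter, 4 with DESeq2, 0 with the deposited log2 values, 4 without jejunum crypt 1 and the library labelled ileum crypt 3, and 3 without the crypt libraries high in Xist; the lower count was 6 with DESeq2 and 8 without that first pair. In crypt it was 1 higher with DESeq2, and 3 higher and 5 lower without that pair. In LGR5 it was 4 and 4 with DESeq2, 2 and 2 without that pair, 2 and 3 without the crypt libraries high in Xist, and 5 and 6 with only the compared groups. In CD166 the lower count was 3 with DESeq2, 2 with limma-voom, 2 without that pair, 2 without the crypt libraries high in Xist and 4 with only the compared groups, which also gave 1 higher. For CD166 against LGR5 the higher count was 3 with DESeq2, 2 with the deposited log2 values, 2 without the crypt libraries high in Xist and 3 with only the compared groups; the interaction had 1 with DESeq2. The causes were not tested.

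Libraries with the same replicate number did not deviate together throughout. Between regions of 1 population their correlations were -0.389, -0.454 and 0.378 in crypt, -0.211 in LGR5 and -0.288 in CD166. Between populations they ran from -0.193 to 0.272. The highest correlation of all, 0.621, joined libraries of different numbers, ileum crypt 1 and jejunum crypt 2, the crypt libraries high in Xist. The numbers were therefore not taken to pair libraries, and no block was fitted with crossed crypt numbers. A replicate block gave 3 higher between regions over all populations, 2 higher and 2 lower in LGR5, and 2 higher for CD166 against LGR5. With crossed numbers in jejunum LGR5 and CD166, an alternative chosen after seeing the data, the block gave 4 higher over all populations and 2 higher and 2 lower in LGR5. Within LGR5 cells 1% of simulated 2-fold changes were recovered, so differences of that size between regions were mostly below detection.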
